A study of Mus musculus with 63 samples.

Results

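The genes described here encode the adhesion machinery that fastens basal keratinocytes to the basement membrane. They are *Itga6*, *Itgb4*, *Itga3*, *Itgb1*, *Lama3*, *Lamb3*, *Dst*, *Plec* and *Bcam*. Every array probe carrying 1 of these 9 symbols in the platform annotation was taken, without regard to its values. The 9 genes themselves were chosen with earlier results of these data known. This gave 27 of 28049 probes, and 9 of 14541 annotated gene symbols. *Plec* had 11 probes and *Dst* 6. *Itga6*, *Itgb1* and *Lama3* had 2 each, and *Itga3*, *Itgb4*, *Lamb3* and *Bcam* 1 each.

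Hemidesmosomes anchor the epidermis to the basement membrane. In them the integrin made of the alpha 6 chain (*Itga6*) and the beta 4 chain (*Itgb4*) binds laminin 332 outside the cell, and the plakins plectin (*Plec*) and dystonin (*Dst*) tie it to keratin filaments inside. *Lama3* and *Lamb3* encode the alpha 3 and beta 3 chains of laminin 332, which keratinocytes secrete themselves. The integrin of alpha 3 (*Itga3*) and beta 1 (*Itgb1*) chains binds the same laminin outside hemidesmosomes. *Bcam*, the Lutheran glycoprotein, is a receptor for laminins containing the alpha 5 chain.

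All samples were keratinocytes from newborn CD-1 mouse skin. EGFR knockout (KO) cells came from mice lacking the epidermal growth factor receptor, and wild-type (WT) cells from mice with it. Cells were transduced with v-rasHa, an oncogenic ras gene carried by a retrovirus from Psi-2 producer cells, and kept for 4 days, or were mock-treated. Some cultures, after 4 days, received an inhibitor of the EGFR kinase, which was AG1478, Erlotinib or PD153035 and was given at 1 µM over 2 h. The groups were KO ras with AG1478 (n = 6), Erlotinib (n = 4) or PD153035 (n = 5), WT ras with each inhibitor (n = 5 each), KO ras and WT ras (n = 5 each), WT mock with each inhibitor (n = 5 each), KO mock (n = 3) and WT mock (n = 4). No array held mock-treated KO cells given an inhibitor. That samples are separate cultures rests on the series' mention of biological replicates alone, so p-values measure only how far these samples spread, in part perhaps for technical reasons.

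Each of 63 arrays set 1 sample against universal mouse reference RNA, pooled from mouse cell lines, and held 24860 to 28047 values. Values are log ratios of sample over reference, with base 2 assumed, so a level of 0 means as much signal as the reference and not absence. Keratinocyte markers (23 genes) lay above 21 genes of the reference pool on all 63 arrays, by 1.52 to 6.64. The direction of the ratios was itself set with these lists, so the sign of this difference is not a check of it. Group means of the keratinocyte list lay between 2.59 and 3.97, of 13 fibroblast markers between -1.57 and -0.39 and of 8 melanocyte markers between 0.72 and 2.23. Those of 9 leukocyte markers lay between -1.78 and -1.04 and of 7 endothelial markers between -2.75 and -1.34. On 2 arrays, KO ras with AG1478 replicates 3 and 4, the direction read from the values (correlation with the forward arrays -0.83 and 0.81 as deposited) went against the labelled dye order, and results that use this group are given with and without them. Array numbers in the labels fall into 8 runs, and the sources used here give no meaning for a run. KO mock (run 4) and KO ras replicates 1 to 3 (run 3) shared no run with any WT group. KO ras replicates 4 and 5 (runs 6 and 5) shared theirs with WT ras cells given Erlotinib. Without inhibitor, no run held both KO and WT cells, since WT mock and WT ras were in runs 1 and 2. KO and WT ras cells given the same inhibitor shared at least 1 run. The targeted gene did not separate the genotypes: its probe 1779082_1 ran from 0.22 to 2.77 over 23 KO samples, against 0.43 to 3.60 over 39 WT samples, and probe 1795812_1 from -0.27 to 1.71, against -0.29 to 3.32 (*Egfr*). Whether either probe reads the deleted part of the gene is stated by no source used here, so the genotype labels could not be checked on it. Adjusted p-values are from limma over every probe tested, with calls at an adjusted p under 0.05, and "with run" marks the adjusted p when run was a random block.

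For 3 of the members that were higher together under Erlotinib than under PD153035 in KO ras cells, the 250 bases before the first listed transcript start are shown, from RefSeq (GRCm38.p6). *Itga6* and *Lama3* were also called higher there, but no window is shown for them. Capitals mark the GC box GGGCGG or its reverse complement CCGCCC, which 32.7% of 32851 promoter windows of this length hold. The AP-1 motif TGACTCA (reverse complement TGAGTCA), held by 4.46% of those windows, was in none of these.
*Itga3* promoter, chr11:95076715-95076964, minus strand: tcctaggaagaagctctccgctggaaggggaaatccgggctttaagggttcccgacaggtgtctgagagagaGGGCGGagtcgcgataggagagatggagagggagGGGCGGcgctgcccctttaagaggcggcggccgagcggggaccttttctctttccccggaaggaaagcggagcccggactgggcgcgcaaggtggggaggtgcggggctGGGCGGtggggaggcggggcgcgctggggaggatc
*Itgb1* promoter, chr8:128685404-128685653, plus strand: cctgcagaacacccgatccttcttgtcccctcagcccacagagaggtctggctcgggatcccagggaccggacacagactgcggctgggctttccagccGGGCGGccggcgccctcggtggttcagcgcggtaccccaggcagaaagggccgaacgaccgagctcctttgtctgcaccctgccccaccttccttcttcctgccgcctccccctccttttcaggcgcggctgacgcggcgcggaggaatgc
*Lamb3* promoter, chr1:193301744-193301993, plus strand: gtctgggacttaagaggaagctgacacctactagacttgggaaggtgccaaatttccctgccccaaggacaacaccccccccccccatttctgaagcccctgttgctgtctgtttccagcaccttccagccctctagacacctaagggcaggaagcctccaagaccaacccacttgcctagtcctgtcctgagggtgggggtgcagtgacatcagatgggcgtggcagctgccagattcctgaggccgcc
The *Itga3* window held 3 GC boxes, the *Itgb1* window 1 and the *Lamb3* window 0. The first listed *Dst* window held 4 and the *Bcam* window 0.

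The laminin 332 chains and the hemidesmosomal integrin were among the members furthest above the reference RNA. *Itgb4* averaged from 2.76 in WT ras with PD153035 to 5.08 in KO mock, and its single samples ran from 1.17 to 5.54. *Lama3* (probe 1775514_1) averaged from 2.96 in WT ras with AG1478 to 5.09 in KO ras with Erlotinib. *Lamb3* averaged from 1.56 in WT ras with Erlotinib to 3.71 in KO ras with Erlotinib. All 62 samples lay above the reference for these 3 probes.

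The integrin alpha chains and beta 1 were also mostly above it. *Itga6* averaged 1.54 to 3.46 by probe 1780012_1 and 0.85 to 3.10 by probe 1790476_1, lowest in WT ras with AG1478 and highest in KO ras with Erlotinib by both. *Itga3* averaged from 0.88 in WT mock with PD153035 to 3.46 in KO ras with Erlotinib. *Itgb1* (probe 1769984_1) averaged from 0.24 in KO ras with PD153035 to 2.36 in KO ras with Erlotinib. KO ras with Erlotinib thus gave the highest mean for 6 probes: *Lama3* 1775514_1, *Lamb3*, both of *Itga6*, *Itga3* and *Itgb1* 1769984_1. When the 13 groups were put in order of level, no pair of neighbours was free of overlap between samples for 26 of the 27 probes. The share over all 27801 probes with at least 2 values in every group was 98.3%. For *Plec* 1792218_1, 1 of 12 neighbouring pairs did not overlap.

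**Figure D1:**
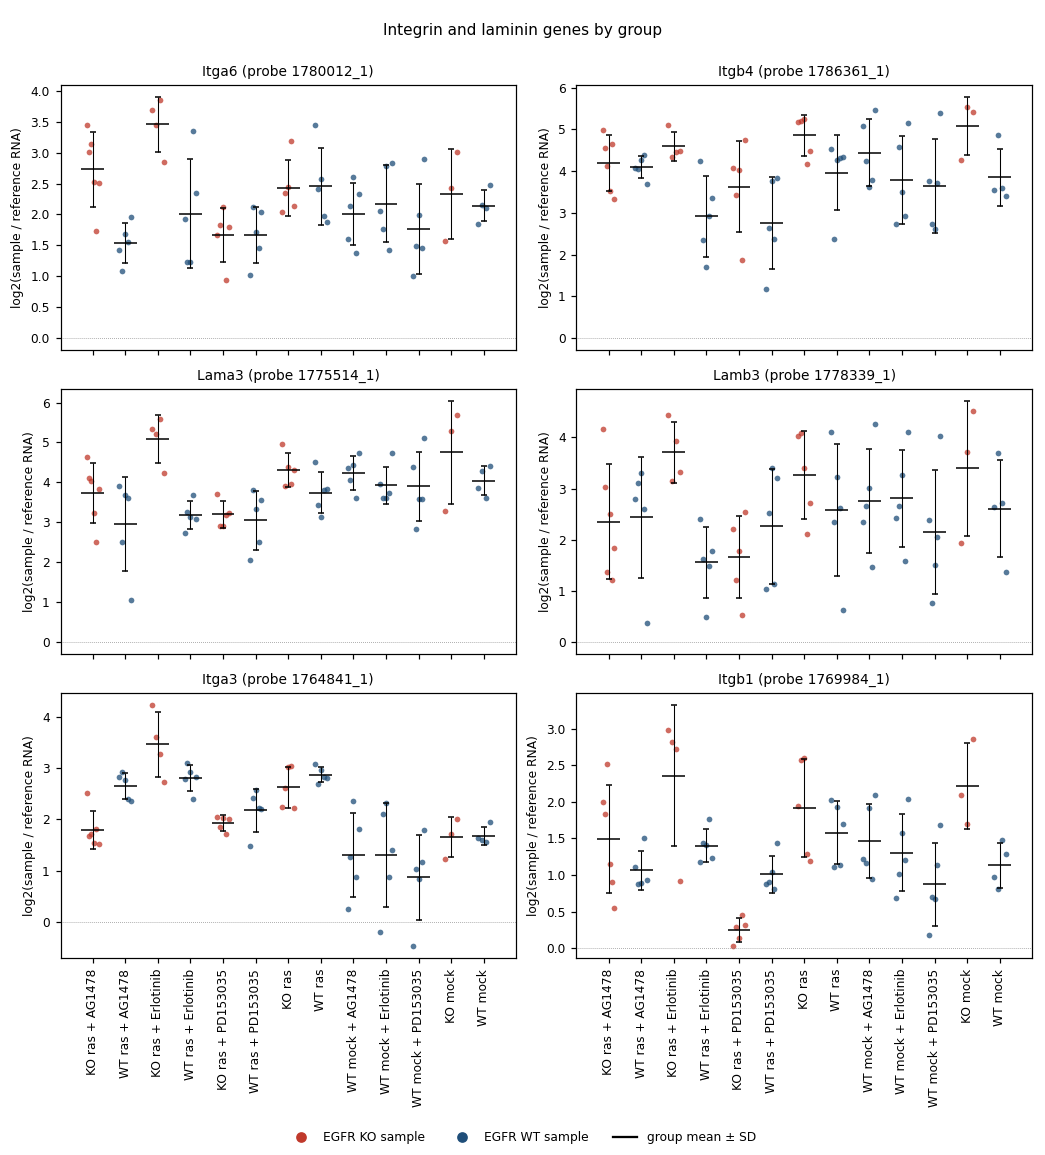
Per-sample log2 ratios of sample over reference RNA (vertical axis) for 6 integrin and laminin genes in the 13 groups (horizontal axis), with KO samples in red, WT samples in blue, and bars for the group mean ± SD. KO ras with Erlotinib has the highest mean of *Itga6* (3.46), *Lama3* (5.09), *Lamb3* (3.71), *Itga3* (3.46) and *Itgb1* (2.36), and the 5 *Itgb1* samples of KO ras with PD153035 sit between 0.03 and 0.46.

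Probes of the same gene did not all report alike. The second *Itgb1* probe (1795300_1) averaged -0.50 to 0.58, and over the 13 group means it correlated with the first at -0.38. The second *Lama3* probe (1795483_1) averaged -1.28 to 0.15 and correlated with the first at -0.32. The 2 *Itga6* probes correlated at 0.80. Group means share arrays between probes, so these values are descriptions over 13 points.

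The plakins were read over a wide range. The 6 *Dst* probes averaged between -1.31 and 0.81 in every group, and the correlation of their group means had a median of 0.09 over 15 pairs (range -0.56 to 0.68). Among the 11 *Plec* probes, 1768460_1 averaged 0.24 to 2.18 and 1792218_1 averaged -0.16 to 2.00, while 1796783_1 averaged -2.27 to -0.95. Probe 1795642_1 ran from -4.29 in KO ras with Erlotinib to -0.20 in KO mock, with single samples from -5.10 to 2.12. The 55 *Plec* pairs had a median correlation of 0.05 (range -0.65 to 0.67). The *Plec* and *Dst* probes carry several different transcript records in the annotation, so a call on 1 probe is given for that probe and not for the gene. *Bcam* lay below the reference in 12 groups, with means from -1.30 to -0.68, and averaged 0.16 in KO mock.

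**Figure D2:**
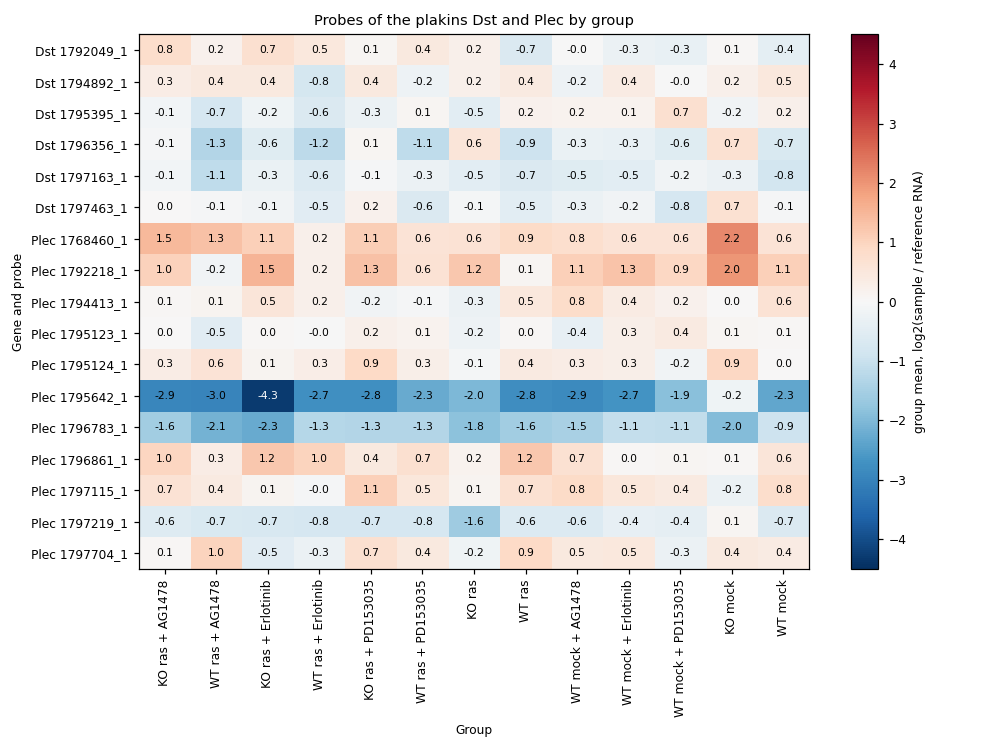
Group means of the log2 ratio of sample over reference RNA (colour and printed value) for the 6 *Dst* and 11 *Plec* probes (rows) in the 13 groups (columns). *Plec* 1795642_1 is far below the reference in most groups (-4.29 in KO ras with Erlotinib) while *Plec* 1792218_1 reaches 2.00 in KO mock, and *Dst* 1796356_1 is lower in WT ras groups than in KO ras groups.

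Transduction with v-rasHa was compared with mock treatment in each genotype. In WT cells limma called 0 of 27 member probes, against 0.183% of all probes tested, and 2 passed an unadjusted p under 0.05 (6.69% of all probes). Those were *Itga3* and *Plec* 1792218_1. *Itga3* measured 2.70, 2.96, 2.80, 2.83 and 3.08 in WT ras samples, against 1.63, 1.60, 1.57 and 1.94 in WT mock samples. The *Itga3* groups did not overlap, and the difference was 1.21 ± 0.35 (SE, adjusted p = 0.313 by limma, and 0.164 with run). *Plec* 1792218_1 differed by -0.94 ± 0.33 (adjusted p = 0.521). The median difference over the 27 probes was -0.11, against 0.04 over all probes, with 11 of 27 above 0. In these bulk samples, fewer cells of a type and less RNA per cell cannot be told apart.

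In KO cells the laminin receptor *Bcam* was lower after transduction, the only member called of 27 (0.539% of all probes). It measured -1.69, -1.07, -1.14, -1.61 and -0.99 in KO ras samples, against -0.07, -0.69 and 1.26 in KO mock samples. The groups did not overlap, and *Bcam* fell by 1.47 ± 0.35 (adjusted p = 0.0236). No run held both groups, and with run the adjusted p was 0.812. The call was lost without KO ras replicate 1 or 4 or KO mock replicate 1 or 3 (adjusted p up to 0.666, with differences of -1.90 to -0.93 over the 8 omissions). *Itga3* measured 2.23, 2.62, 3.02, 2.22 and 3.04 in KO ras samples, against 1.73, 1.24 and 2.02 in KO mock samples, again without overlap (1.02 ± 0.39, adjusted p = 0.413). Markers of 2 cell types fell in the same comparison. They were the basal keratin *Krt15*, 1 of 23 keratinocyte markers (-2.94 ± 0.46, adjusted p = 0.000151, 0.0864 with run, list median -0.11), and 2 of 13 fibroblast markers (list median -0.71), *Col1a2* (-2.69 ± 0.66, adjusted p = 0.0346) and *Col6a1* (-2.01 ± 0.50, adjusted p = 0.0402). Their part in the *Bcam* difference was not tested. The difference between the genotypes' responses gave 0 member calls in limma (0.0108% of all probes) and 3 at an unadjusted p under 0.05 (5.91% of all probes), with -1.31 ± 0.47 for *Bcam* (adjusted p = 0.632).

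The v-rasHa comparison could be repeated in WT cells under each inhibitor, and *Itga3*, the laminin-binding alpha 3 chain, was higher in ras cells each time. These 3 comparisons share no sample with each other or with the untreated one. With AG1478, *Itga3* measured 2.91, 2.77, 2.35, 2.40 and 2.81 in ras cells, against 0.26, 1.26, 2.36, 0.88 and 1.81 in mock cells. With Erlotinib it measured 2.92, 2.79, 3.09, 2.40 and 2.82 in ras cells, against -0.18, 2.11, 2.33, 0.89 and 1.41 in mock cells. The ras samples were closely grouped, and 1 ras sample under AG1478 lay below the highest mock sample while under Erlotinib none did. With PD153035 it measured 1.49, 2.42, 2.57, 2.21 and 2.20 in ras cells, against -0.46, 1.03, 0.83, 1.18 and 1.80 in mock cells, overlapping in 1 ras sample. The rises were 1.34 ± 0.33 (adjusted p = 0.0108), 1.50 ± 0.33 (adjusted p = 0.00367) and 1.30 ± 0.33 (adjusted p = 0.0303) under AG1478, Erlotinib and PD153035. No run held both groups, and with run the adjusted p-values were 0.115, 0.0762 and 0.234. Under AG1478 the call was lost without WT mock replicate 1 (adjusted p = 0.0703). Under PD153035 it was lost without WT ras replicate 2, 3, 4 or 5 or WT mock replicate 1 or 3 (adjusted p up to 0.178).

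Other members called in these comparisons were lower in ras cells. *Plec* 1792218_1 fell by 1.22 ± 0.31 with AG1478 (adjusted p = 0.0132, 0.223 with run) and by 1.07 ± 0.31 with Erlotinib (adjusted p = 0.0322, 0.303 with run). The Erlotinib call was lost without WT ras replicate 1, 2 or 3 or WT mock replicate 1, 3 or 5 (adjusted p up to 0.145). *Itga6* 1790476_1 fell by 1.76 ± 0.42 with AG1478 (adjusted p = 0.00837, 0.223 with run). In the AG1478 comparison 2 of 13 fibroblast markers also fell, *Col5a1* (-1.14 ± 0.33, adjusted p = 0.0326) and *Pdgfrb* (-1.09 ± 0.34, adjusted p = 0.0441), with a list median of -0.41. With Erlotinib 1 of 7 endothelial markers was higher, *Cldn5* (3.26 ± 0.82, adjusted p = 0.0106). The sample medians of that list averaged -1.57 in ras cells, against -1.64 in mock cells. The part of these markers in the members' differences was not tested. In all, 3, 2 and 1 of 27 probes were called with AG1478, Erlotinib and PD153035, against 5.18%, 5.28% and 1.19% of all probes.

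The effect of EGFR loss was first compared without inhibitor, where no run held both genotypes. In mock cells 0 of 27 probes were called by limma (1.11% of all probes), 8 passed an unadjusted p under 0.05 (17.7% of all probes), and the median member difference was 0.38, against 0.05 over all probes. *Dst* 1796356_1 came nearest, at 0.89, 0.49 and 0.73 in KO mock samples, against -1.16, -0.19, -1.16 and -0.24 in WT mock samples. These samples did not overlap (1.38 ± 0.40, adjusted p = 0.0597). *Itgb1* 1769984_1 measured 1.70, 2.09 and 2.85 in KO mock samples, against 0.97, 0.80, 1.48 and 1.28 in WT mock samples, also without overlap (1.04 ± 0.40, adjusted p = 0.153). The second *Itgb1* probe averaged -0.10 in KO mock, against 0.51 in WT mock. Every cell type list had a median above that of all probes in the same comparison. It was 1.28 for keratinocyte markers, with 3 of 23 called higher (the keratins *Krt14*, *Krt15* and *Krt10*), 1.04 for fibroblast markers with 13 of 13 above 0, 1.07 for endothelial, 0.97 for leukocyte and 0.96 for melanocyte markers, with 0 called in these 4 lists and 3, 3, 1 and 2 genes at an unadjusted p under 0.05. Their part in the members' values was not tested.

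In ras cells, where no run held both groups, 2 of 27 probes, both of plakins, were higher in KO (1.93% of all probes). *Dst* 1796356_1 measured 0.69, 1.84, 0.79, 0.39 and -0.93 in KO ras samples, against -0.85, -0.58, -0.14, -1.40 and -1.77 in WT ras samples. KO replicate 5 lay among the WT samples and the other 4 above them. The rise was 1.50 ± 0.33 (adjusted p = 0.0108), and it was no longer called with run (0.333) or without WT ras replicate 5 or KO ras replicate 2 (adjusted p up to 0.0731). *Plec* 1792218_1 measured 1.23, 1.35, 1.11, 1.21 and 1.11 in KO ras samples, against 0.41, 0.39, 0.17, -0.23 and -0.26 in WT ras samples. The groups did not overlap and each was tight. The rise was 1.11 ± 0.31 (adjusted p = 0.047, 0.379 with run), and leaving out any of KO ras replicates 1 to 4 or WT ras replicates 1, 3, 4 and 5 ended the call (differences 1.00 to 1.17, adjusted p up to 0.15). The median over the 27 probes was -0.19, against 0.01 over all probes, with 12 of 27 above 0. No marker of the 5 cell type lists was called there by limma, 9 genes of these lists had an unadjusted p under 0.05, and the keratinocyte and melanocyte medians were both 0.76.

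KO and WT ras cells given the same inhibitor shared at least 1 run, so these comparisons can be read within runs. With AG1478 this rests on WT replicates 3 and 4, since the other 3 WT samples were alone in run 7. The probes called higher in KO cells were both of *Itga6* and *Plec* 1792218_1 with AG1478 and with Erlotinib, *Lama3* 1775514_1 with Erlotinib, and *Dst* 1796356_1 with AG1478 and with PD153035. No member was called lower, and whether the genotype difference varied between inhibitors was not tested. Limma called 4 of 27 probes with AG1478, 4 with Erlotinib and 1 with PD153035, against 2.23%, 0.985% and 1.38% of all probes. The 3 comparisons share no sample.

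With Erlotinib, *Itga6* 1780012_1 measured 3.69, 3.44, 3.84 and 2.84 in KO ras cells, against 1.23, 1.92, 1.23, 3.34 and 2.35 in WT ras cells. Probe 1790476_1 measured 2.70, 3.15, 3.63 and 2.92 in KO cells, against 0.80, 0.83, 0.90, 2.48 and 1.53 in WT cells. The second probe separated the groups completely, and in the first only WT replicate 4 reached the KO samples. The rises were 1.46 ± 0.37 (adjusted p = 0.0353) and 1.77 ± 0.45 (adjusted p = 0.0367). *Lama3* 1775514_1 measured 5.34, 5.21, 5.58 and 4.23 in KO cells, against 3.14, 2.73, 3.27, 3.69 and 3.08 in WT cells, without overlap (1.92 ± 0.45, adjusted p = 0.0225). The second *Lama3* probe averaged -0.59 in KO cells, against -0.47 in WT cells. *Plec* 1792218_1 measured 1.48, 1.45, 1.34 and 1.80 in KO cells, against -0.21, -0.78, 0.09, 0.72 and 1.25 in WT cells, also without overlap (1.32 ± 0.33, adjusted p = 0.0356).

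With run as a fixed block these 4 calls held, at adjusted p-values of 0.00792, 0.0149, 0.0138 and 0.00293, and 2 more probes were called. *Lamb3*, the beta chain partner of *Lama3*, measured 4.44, 3.14, 3.92 and 3.32 in KO cells, against 0.49, 2.40, 1.61, 1.50 and 1.78 in WT cells, with no overlap (2.27 ± 0.64 within runs, adjusted p = 0.0374). The other was *Dst* 1794892_1 (1.37 ± 0.35 within runs, adjusted p = 0.0231), whose samples overlapped. Without the block the calls depended on single samples. *Lama3* was lost without KO replicate 1 or 3 or WT replicate 1 (adjusted p up to 0.0815). *Itga6* 1780012_1 was lost without KO replicate 1, 2 or 3 or WT replicate 1 or 3 (up to 0.134), and 1790476_1 also without WT replicate 2 (up to 0.133). *Plec* was lost without any of the 4 KO samples or WT replicates 1 to 3 (up to 0.113). Among the keratinocyte markers *Trp63*, the epidermal transcription factor p63, was higher in KO cells (3.22 ± 0.76, adjusted p = 0.0252), and the list of 23 had a median of 0.45. The medians were 0.96 for melanocyte, -0.38 for fibroblast, -0.46 for leukocyte and -0.49 for endothelial markers. The part of these lists in the differences was not tested.

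**Figure D3:**
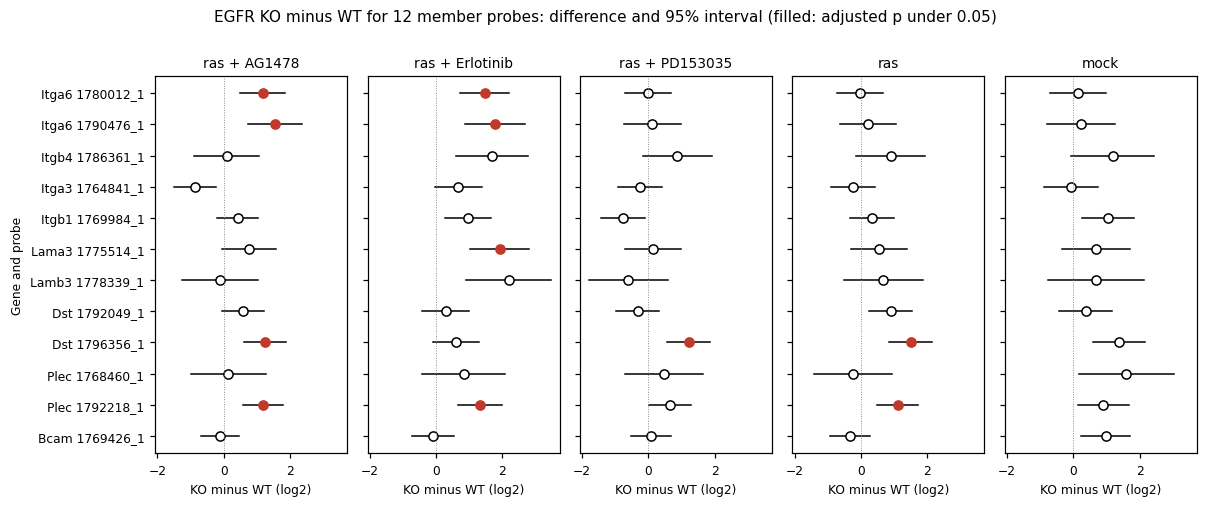
Difference of EGFR KO minus WT on the log2 scale (horizontal axis, points with 95% intervals) for 12 member probes (rows) in ras cells with each inhibitor, in ras cells and in mock cells (panels), with filled points where the adjusted p was under 0.05. Filled points are all above 0: 4 with AG1478, 4 with Erlotinib, 1 with PD153035, 2 in ras cells without inhibitor and 0 in mock cells.

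With AG1478, *Itga6* 1780012_1 had a lowest, median and highest value of 1.74, 2.77 and 3.44 in the 6 KO ras samples, against 1.08, 1.69, 1.96, 1.55 and 1.43 in WT ras cells. Probe 1790476_1 had 1.69, 2.48 and 2.85 in KO cells, against 0.93, 1.30, -0.57, 1.57 and 1.03 in WT cells. The second probe separated the groups, and in the first 1 KO sample lay among the WT samples. The rises were 1.17 ± 0.33 (adjusted p = 0.0431) and 1.54 ± 0.41 (adjusted p = 0.0262). *Plec* 1792218_1 had 0.52, 0.95 and 1.75 in KO cells, against -0.20, 0.09, -0.15, -0.75 and 0.24 in WT cells, without overlap (1.18 ± 0.30, adjusted p = 0.0205). *Dst* 1796356_1 had -0.74, 0.00 and 0.44 in KO cells, against -1.21, -1.31, -1.26, -1.41 and -1.36 in WT cells, without overlap (1.24 ± 0.31, adjusted p = 0.0206).

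Of these 4, *Itga6* 1790476_1 (adjusted p = 0.0312) and *Plec* 1792218_1 (0.0385) were called with run as a fixed block, and *Itga6* 1780012_1 (0.433) and *Dst* 1796356_1 (0.0763) were not. That block sets the 6 KO samples against WT replicates 3 and 4, the only WT samples with AG1478 in run 8. For *Itga6* 1790476_1 these 2 measured -0.57 and 1.57. Without the 2 arrays whose direction went against their label, *Itga6* 1780012_1 (1.41, adjusted p = 0.0394) and *Plec* 1792218_1 (1.37, 0.026) stayed called, while *Itga6* 1790476_1 (1.58, 0.0739) and *Dst* 1796356_1 (0.96, 0.16) did not. If the labelled dye order was followed for those arrays, the *Itga6* differences turned to -0.26 and -0.092, and only *Dst* 1796356_1 was called (0.95, adjusted p = 0.0494). Left out singly, KO replicates 1, 2, 5 and 6 and WT replicates 1, 2 and 5 each ended the call of *Itga6* 1780012_1 (adjusted p up to 0.145). KO replicates 1, 3, 5 and 6 and WT replicates 1 and 3 each ended that of 1790476_1 (up to 0.0967). For *Dst* these were KO replicates 3, 4 and 5 (up to 0.0626), and for *Plec* KO replicate 5 and WT replicates 1 and 4 (up to 0.0695).

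With PD153035 the *Itga6* probes lay at similar levels in both genotypes. Probe 1780012_1 measured 1.67, 1.83, 2.13, 0.94 and 1.79 in KO ras cells, against 1.02, 2.13, 1.72, 1.46 and 2.04 in WT ras cells, and the 95% interval of the difference ran from -0.70 to 0.69. *Dst* 1796356_1 was the member called, at -0.06, 0.24, 0.08, 0.20 and -0.07 in KO cells, against -0.91, -1.0, -1.43, -1.43 and -0.90 in WT cells. The groups did not overlap (1.21 ± 0.33, adjusted p = 0.0423, 0.0127 with run as a fixed block). Leaving out any 1 of the 10 samples ended the call, with differences of 1.13 to 1.27 and adjusted p up to 0.12.

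**Figure D4:**
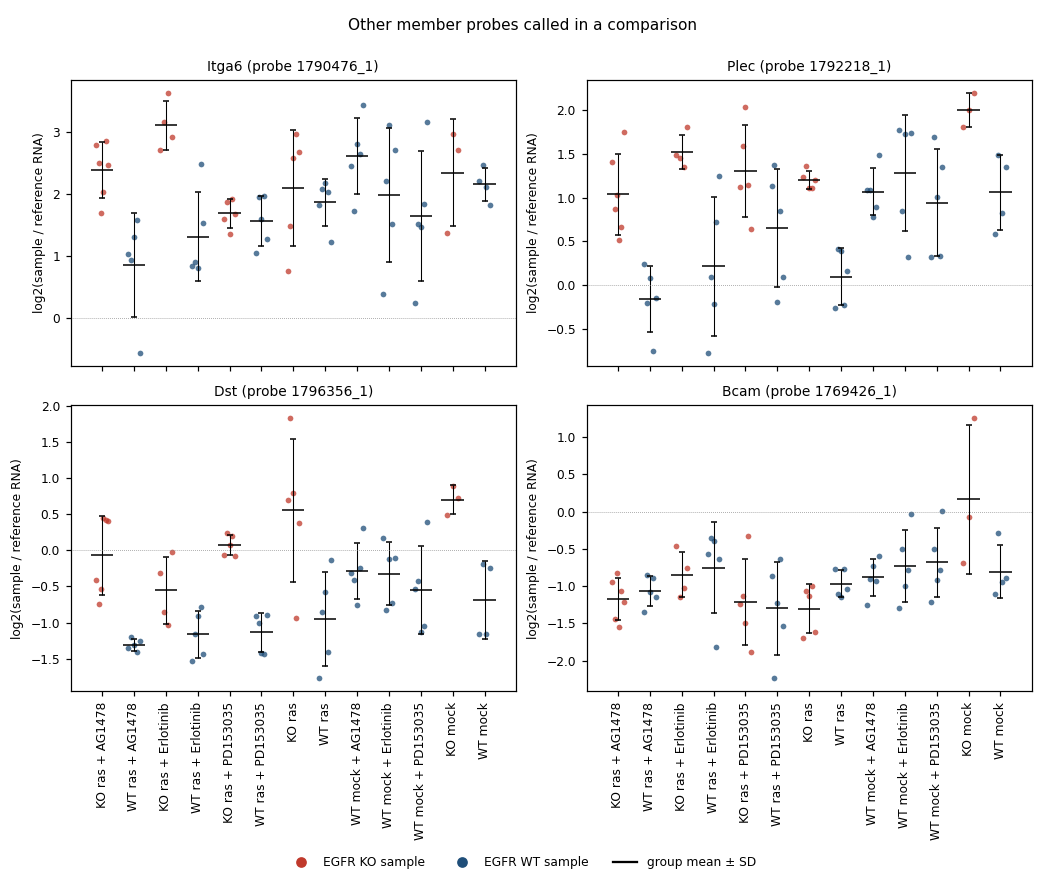
Per-sample log2 ratios of sample over reference RNA (vertical axis) for *Itga6* 1790476_1, *Plec* 1792218_1, *Dst* 1796356_1 and *Bcam* in the 13 groups (horizontal axis), with KO samples in red, WT samples in blue, and bars for the group mean ± SD. KO ras samples with AG1478 lie above their WT counterparts for the first 3 probes, and KO mock is the 1 group with a *Bcam* mean above 0 (0.16).

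Each inhibitor was also compared with no inhibitor. In WT mock cells limma called 0 of 27 probes for AG1478, Erlotinib and PD153035 (0%, 0% and 0% of all probes), and 0, 0 and 1 had an unadjusted p under 0.05 (6.51%, 3.18% and 3.42% of all probes). Member differences there lay between -0.79 and 0.65, with 95% intervals reaching a median of 0.80 to either side. In WT ras cells 0, 1 and 0 of 27 were called (1.96%, 3.41% and 0.66% of all probes), and 3, 6 and 4 had an unadjusted p under 0.05 (17.1%, 18.3% and 12.2% of all probes). The call was *Dst* 1792049_1 with Erlotinib, at -0.20, 0.84, 0.31, 0.06 and 1.43 in treated WT ras cells, against 0.52, 0.22, -0.19, -1.84 and -1.99 in WT ras cells. The samples overlapped, and no run held both groups (1.15 ± 0.33, adjusted p = 0.0386, 0.257 with run). Without WT ras replicate 4 or 5 or Erlotinib replicate 2, 3, 4 or 5 it was not called, with differences of 0.76 to 1.40 over the 10 omissions and adjusted p up to 0.224. Of 8 melanocyte markers 1, *Mitf*, was higher in the same comparison (0.92 ± 0.26, adjusted p = 0.0392). The sample medians of that list averaged 0.99 with Erlotinib, against 1.68 in WT ras cells. The part of these markers was not tested.

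In KO ras cells, labelled as lacking EGFR, 0, 0 and 1 of 27 probes were called for AG1478, Erlotinib and PD153035 (0.229%, 0.0543% and 4.82% of all probes). At an unadjusted p under 0.05 there were 3, 7 and 9 members, against 14.1%, 11.8% and 22.2% of all probes. The probe called was *Itgb1* 1769984_1, the beta 1 integrin chain, lower with PD153035. It measured 0.03, 0.29, 0.14, 0.46 and 0.31 in treated KO ras cells, against 1.94, 2.57, 2.59, 1.18 and 1.29 in KO ras cells. The groups did not overlap, and *Itgb1* fell by 1.67 ± 0.33 (adjusted p = 0.00331). The call held without each sample in turn (adjusted p up to 0.0181). No run held both groups, and with run the call was lost (0.38). The KO ras samples split by run, at 1.94 to 2.59 in run 3 and 1.29 and 1.18 in runs 5 and 6. The second *Itgb1* probe differed by 0.40 the other way and was not called. In the same comparison 3 of 23 keratinocyte markers fell, *Trp63*, *Sfn* and *Jup*, with a list median of -0.72, and 1 of 7 endothelial markers, *Emcn*. The sample medians of the endothelial list averaged -1.37 with PD153035, against -1.69 in KO ras cells. Melanocyte markers had a median of -0.62 with 0 of 8 above 0, and fibroblast markers one of -0.49, with none called in either list and 1 and 3 genes at an unadjusted p under 0.05. Their part was not tested. Tests of whether an inhibitor acted differently in KO and WT ras cells called 0 of 27 members for AG1478, Erlotinib and PD153035 in limma (0.874%, 0.0653% and 0.0933% of all probes), with 3, 5 and 4 at an unadjusted p under 0.05 (16.9%, 11.3% and 10.1% of all probes).

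AG1478 and PD153035 are both dimethoxy anilinoquinazolines that differ in the halogen on the aniline ring, chlorine in AG1478 and bromine in PD153035, while Erlotinib carries an ethynyl group there and longer ether chains. At the same dose and time, 9 pairs were compared. In WT mock cells limma called 0 of 27 members for AG1478 minus Erlotinib, AG1478 minus PD153035 and Erlotinib minus PD153035 (0%, 0% and 0% of all probes). Samples were fitted as unpaired, though some same-numbered WT mock samples lay close together. At an unadjusted p under 0.05 there were 1, 3 and 0 members, against 3.14%, 3.08% and 1.16% of all probes. In WT ras cells it called 0, 0 and 0 (0.897%, 1.31% and 0.176%), with 4, 4 and 0 unadjusted, against 13.5%, 17.7% and 9.04%. In KO ras cells it called 1, 1 and 6 (0.243%, 0.759% and 5.82%).

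Erlotinib minus PD153035 in KO ras cells moved the members most often, and all 6 calls were integrin or laminin probes higher with Erlotinib. A laminin chain outside the members, *Lama2*, was called lower with Erlotinib (-1.51 ± 0.44, adjusted p = 0.0306, 0.698 with run). The second *Itgb1* and *Lama3* probes averaged lower with Erlotinib and were not called. *Itgb1* 1795300_1 averaged -0.50, against 0.01 with PD153035, and *Lama3* 1795483_1 averaged -0.59, against -0.03. *Itgb1* 1769984_1 measured 2.98, 2.81, 2.72 and 0.92 with Erlotinib, against 0.03, 0.29, 0.14, 0.46 and 0.31 with PD153035, without overlap (2.13 ± 0.35, adjusted p = 0.000143, 0.0364 with run). *Itga3* measured 4.22, 3.60, 3.28 and 2.73 with Erlotinib, against 2.05, 1.85, 2.03, 1.71 and 2.01 with PD153035 (1.54 ± 0.35, adjusted p = 0.00527). *Lama3* 1775514_1 measured 5.34, 5.21, 5.58 and 4.23 with Erlotinib, against 3.72, 2.91, 2.92, 3.19 and 3.24 with PD153035 (1.91 ± 0.45, adjusted p = 0.00626). Neither *Itga3* nor *Lama3* samples overlapped. *Lamb3* measured 4.44, 3.14, 3.92 and 3.32 with Erlotinib, against 2.20, 1.21, 1.78, 0.54 and 2.55 with PD153035, also without overlap (2.09 ± 0.63, adjusted p = 0.0381). *Itga6* was higher by 1.80 ± 0.37 (adjusted p = 0.00174) by probe 1780012_1 and by 1.40 ± 0.45 (adjusted p = 0.0495) by probe 1790476_1.

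No run held both groups. With run, *Itgb1* alone stayed called, and the adjusted p-values were 0.387 for *Itga3*, 0.48 for *Lama3*, 0.63 for *Lamb3*, and 0.146 and 0.754 for the *Itga6* probes. *Lamb3* was also lost without Erlotinib replicate 1, 3 or 4 or PD153035 replicate 1, 2, 3 or 4 (adjusted p up to 0.11), and *Itga6* 1790476_1 without Erlotinib replicate 1, 2 or 3 or any PD153035 replicate (up to 0.191). Markers of 3 cell types moved in the same comparison. *Trp63* (3.10 ± 0.76, adjusted p = 0.00914) and the melanocyte gene *Sox10* (1.61 ± 0.46, adjusted p = 0.0251) were higher with Erlotinib, and the fibroblast gene *Thy1* was lower (-1.55 ± 0.49, adjusted p = 0.0447). The list medians were 0.56 for keratinocyte markers, 0.74 for melanocyte markers with 8 of 8 above 0, and -0.05 for fibroblast markers, and their part was not tested.

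AG1478 and PD153035, the pair that differs in the halogen, shared a run. *Itgb1* 1769984_1 measured 0.55, 1.49 and 2.51 as lowest, median and highest of 6 KO ras samples with AG1478, against 0.03, 0.29, 0.14, 0.46 and 0.31 with PD153035. The groups did not overlap (1.24 ± 0.31, adjusted p = 0.0381, and 0.0109 with run as a fixed block). Without the 2 disputed arrays the difference was 1.43 (adjusted p = 0.0325), and by the labelled dye order it was 0.55 (adjusted p = 0.397). The call was lost without AG1478 replicate 1, 2 or 6 or PD153035 replicate 1, 2, 3 or 5 (adjusted p up to 0.158). The other 26 probes were not called, with differences from -0.65 to 1.04. AG1478 minus Erlotinib, whose groups shared no run, gave 1 call in KO ras cells. *Itga3* had 1.53, 1.69 and 2.51 as lowest, median and highest with AG1478, against 4.22, 3.60, 3.28 and 2.73 with Erlotinib, without overlap (-1.69 ± 0.34, adjusted p = 0.0299). It was not called with run (adjusted p of 1), without the disputed arrays (-1.68, 0.0774), or without AG1478 replicate 4 or 5 or Erlotinib replicate 1, 2 or 3 (up to 0.0927).

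Other genes of the same compartment were read from 3 lists: 19 basement membrane and hemidesmosome genes, 14 integrin subunits and 12 focal adhesion genes on the array. In KO ras cells with PD153035 against no inhibitor, 5 of 12 focal adhesion genes were lower, 0 were higher and 7 were not called, where 4.82% of all probes were called in either direction. The list median was -0.73, against -0.72 for keratinocyte markers, -0.56 for the basement membrane list and 0.01 for all probes. The 5 lower genes were *Vcl*, vinculin (-1.18 ± 0.28, adjusted p = 0.011), *Zyx*, zyxin (-1.01 ± 0.28, 0.0249), *Actn4*, an alpha actinin (-1.12 ± 0.31, 0.0279), the adaptor *Bcar1* (-1.38 ± 0.32, 0.0104) and the kinase *Src* (-0.89 ± 0.27, 0.0431). Of the integrin subunits 2 of 14 fell, *Itga5* and *Itgb6*, and of the basement membrane genes 2 of 19, the type IV collagens *Col4a2* and *Col4a5*. The 2 groups share no run, so run and inhibitor cannot be told apart, and with run none of these 9 genes was called (adjusted p 0.374 to 0.738 for the last 4 and 0.557 to 0.781 for the focal adhesion genes). Erlotinib minus PD153035 in KO ras cells shares the PD153035 samples, and there the same 5 of 12 focal adhesion genes were higher and 1, talin (*Tln1*), lower, where 5.82% of all probes were called. Those groups share no run either, and with run none of the 6 was called (adjusted p 0.119 to 0.709). Of the integrin subunits, *Itga5* (1.48, adjusted p = 0.0032) and *Itgb6* (1.95, 0.00547) were higher with Erlotinib there. Of the basement membrane genes, *Col4a2* was higher (1.57, 0.000387) and the laminin chain *Lama2* lower (-1.51, 0.0306). With run none of these genes was called (adjusted p 0.0822 to 0.698). In AG1478 minus PD153035, which share a run, *Vcl* was higher in KO ras cells with AG1478 (1.03 ± 0.27, adjusted p = 0.0461, 0.00339 with run as a fixed block, 0.0371 without the 2 disputed arrays and 0.378 by the labelled dye order).

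For KO minus WT, each comparison held 1 or 2 calls in these 3 lists. They were all higher in KO without inhibitor and all lower with one. Over all probes, 1.11% were called in mock cells and 1.93% in ras cells, of which 60.8% and 39.9% were higher in KO. With AG1478, Erlotinib and PD153035, 2.23%, 0.985% and 1.38% were called, of which 36.7%, 51.8% and 38.6% were higher. Whether the lists differed from all probes in number or direction of calls was not tested. Without inhibitor, *Itgb5*, the beta 5 integrin chain, was higher in KO in mock (1.04 ± 0.28, adjusted p = 0.0451) and ras cells (0.83 ± 0.23, adjusted p = 0.0442), with *Fras1* in mock (2.54 ± 0.58, adjusted p = 0.0217) and the proteoglycan *Hspg2* in ras cells (1.14 ± 0.33, adjusted p = 0.0492), none of them called with run. *Nid1*, nidogen, which links laminin to type IV collagen, was lower in KO ras cells with Erlotinib (-1.69 ± 0.41, adjusted p = 0.0295) and with PD153035 (-1.58 ± 0.39, adjusted p = 0.0204). *Itgb8*, the beta 8 integrin chain, was lower in KO ras cells with Erlotinib (-2.44 ± 0.54, adjusted p = 0.0156). Both *Nid1* calls and that of *Itgb8* held with run as a fixed block, and in the Erlotinib comparison both genes had the opposite sign to *Lama3* and *Itga6*. In WT ras cells Erlotinib against no inhibitor called *Itgb8* (2.00, adjusted p = 0.0162) and *Itgb5* (1.12, 0.00595) higher (3.41%% of all probes). AG1478 minus Erlotinib there called *Itgb8* lower (-2.33, 0.00796, 0.897%% of all probes). These *Itgb8* calls share the WT ras samples with Erlotinib, and with run none was called (adjusted p 0.179 to 0.471). *Lims1*, a focal adhesion adaptor, was lower in KO ras cells with PD153035 (-1.55 ± 0.37, adjusted p = 0.0166, 0.000415 with run as a fixed block). With AG1478 *Lims1* was lower too (-1.29 ± 0.36, adjusted p = 0.0373), a call not made with run as a fixed block (-0.19, 0.889) or without the 2 disputed arrays (-1.14, 0.154), but made by the labelled dye order (-1.64, 0.00682).

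For ras against mock in WT cells, the anchoring fibril collagen *Col7a1* was lower in ras cells with AG1478 (-2.07 ± 0.61, adjusted p = 0.0353) and with Erlotinib (-2.45 ± 0.61, adjusted p = 0.0104). *Lims1* was higher with AG1478 (1.26 ± 0.37, adjusted p = 0.0344) and Erlotinib (1.55 ± 0.37, adjusted p = 0.00701), and *Nid1* with Erlotinib (1.66 ± 0.39, adjusted p = 0.00586) and PD153035 (1.71 ± 0.39, adjusted p = 0.00969). The laminin chains *Lama1* and *Lamc3* were higher with AG1478, and *Itgb8* with Erlotinib. No run held both groups, and with run none of these 9 differences was called (adjusted p 0.0697 to 0.384). The WT ras samples with each inhibitor also served in KO minus WT. Calls of *Nid1*, *Itgb8* and *Lims1* in both are therefore not separate results.

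The leading probes of *Itga6*, *Itgb4*, *Itga3*, *Itgb1*, *Lama3* and *Lamb3* correlated over the 13 group means at 0.01 to 0.86, with a median of 0.68 over 15 pairs. Among 11279 genes with a leading probe complete on every array, the means most like those of *Itga3* were of *Slc20a2* (r = 0.97), *Slc8b1* (0.91) and *Pole* (0.91). Those most like *Itga6* were *Tslp* (0.91), *Invs* (0.88) and *Gpr35* (0.87). For *Itgb4* they were *Pmel* (0.95), *Plgrkt* (0.94) and *Cfl1* (0.93), and for *Itgb1* *Myadm* (0.95), *Flywch1* (0.94) and *Cd200* (0.93). *Lama3* was nearest to *Rock1* (0.95), *Fam83f* (0.94) and *Robo1* (0.92), and *Lamb3* to *Rarg* (0.93), *Gpnmb* (0.93) and *Slc16a3* (0.90). *Dst* lay nearest to *Atp8a1* (0.90), *Nphs1* (0.90) and *Cirbp* (0.88), *Plec* to *Tfap2c* (0.89), *St3gal2* (0.88) and *Kcnk2* (0.87), and *Bcam* to *Usp37* (0.92), *F2r* (0.92) and *Mrc2* (0.92). These are descriptions over 13 points that share arrays.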

How the data were processed

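The deposited values are log ratios of the dyes per spot, taken as log2, an assumption from their spread (-9.374 to 10.78, SD per array 0.753 to 1.75). The authors centred each array near 0 (medians -0.072 to 0.067), and their normalization and filtering are not given in the sources used here. Per the labels' protocols, sample and reference RNA were labelled with Cy3 and Cy5, in reversed order on 12 arrays.

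The sign of an array's correlation with the median forward-labelled array set its direction relative to the forward arrays. Sample over reference was taken as the direction in which keratinocyte markers lay above the reference pool genes on the forward arrays. Of 63 arrays, the pair labelled WT mock repeat 1 was averaged to leave 62 samples (their correlation was 0.834, and the highest among WT mock arrays 0.903). All 13 groups entered 1 limma fit (limma 3.58.1 with statmod 1.5.0, in R 4.3.3) with dye order as a covariate, and p-values were adjusted by Benjamini-Hochberg over the probes of each of 32 comparisons. Testing a probe required values on 60% or more of the arrays in each group of the comparison, which all 27 member probes passed. Runs are experiment numbers of the labels parted where the gap exceeds 100. On simulated data for KO minus WT in ras cells (19386 probes), the fit recovered 14 of 100 changes of 1 and 81 of 100 changes of 2 on the log2 scale, with 4 false calls. The simulated noise was independent between arrays, while in the data arrays of a run correlated at 0.277 and these 2 groups share no run. These figures therefore do not give the error rate of that comparison. The members and gene lists were chosen with earlier results of these data known. All member probes are described, with full statistics where called, and genes of other lists are named only where called. The leading probe of a gene is the one with most values. Figures were drawn with Python 3.11.15 and matplotlib 3.10.9.

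Over all groups pooled, same-numbered samples did not deviate together (median correlation 0.0243 over 344 pairs, 36.9% of them over 0.1). The replicate numbers were therefore not taken as pairs. Some same-numbered WT mock samples did lie together. Keratinocyte markers lay 6.20, 6.08 and 6.64 above the reference pool genes in replicate 5 with AG1478, Erlotinib and PD153035, against 3.47 without inhibitor. Pairing within the WT mock groups alone was not tested. Alternatives covered dye order, scaling, filters, the samples in the fit, runs, replicate numbers, array weights and each sample left out.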

Additional observations from a re-analysis of the deposited data

Results flagged for a closer look

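In 19 of 323 sets of 4 to 6 samples (1 member probe in 1 group), a single sample stood apart from the others by Dixon's criterion at 95%, and chance gives about 1 in 20. KO mock, with 3 samples, was not examined. In WT mock, replicate 2 had the highest value of *Itgb4* 1786361_1 (4.86, others 3.41 to 3.59). Replicate 1 of WT ras stood at 2.36 for *Itgb4* 1786361_1, where the others lay between 4.26 and 4.53. *Itga3* 1764841_1 was highest in KO ras with AG1478 replicate 6, at 2.51, against 1.53 to 1.81 in the other 5 samples. In KO ras with Erlotinib, replicate 4 had the lowest value of *Itgb1* 1769984_1 (0.92, others 2.72 to 2.98). Replicate 1 of KO ras with Erlotinib stood at -0.83 for *Itgb1* 1795300_1, where the others lay between -0.41 and -0.37. *Lama3* 1795483_1 was lowest in WT mock with Erlotinib replicate 5, at -3.06, against -0.62 to 0.17 in the other 4 samples. KO ras with Erlotinib replicate 4 was low for *Itgb1* 1769984_1 and *Dst* 1792049_1.

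In WT ras with AG1478, replicate 3 had the lowest value of *Lamb3* 1778339_1 (0.38, others 2.59 to 3.30). Replicate 4 of KO ras with Erlotinib stood at -0.14 for *Dst* 1792049_1, where the others lay between 0.95 and 1.10. *Dst* 1792049_1 was highest in WT mock with Erlotinib replicate 2, at 0.56, against -0.60 to -0.29 in the other 4 samples. In WT mock with PD153035, replicate 3 had the highest value of *Dst* 1795395_1 (3.81, others -0.66 to 0.54). Replicate 2 of WT mock stood at 1.57 for *Dst* 1797463_1, where the others lay between -0.73 and -0.39. *Plec* 1768460_1 was highest in WT mock with PD153035 replicate 5, at 1.54, against 0.20 to 0.58 in the other 4 samples. In WT ras with Erlotinib, replicate 5 had the highest value of *Plec* 1794413_1 (1.15, others -0.15 to 0.17).

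Replicate 5 of WT ras stood at 1.79 for *Plec* 1795124_1, where the others lay between -0.10 and 0.41. *Plec* 1796783_1 was lowest in WT mock with Erlotinib replicate 5, at -1.95, against -1.05 to -0.70 in the other 4 samples. In WT mock with AG1478, replicate 1 had the highest value of *Plec* 1797219_1 (0.44, others -1.08 to -0.72). Replicate 1 of WT mock with PD153035 stood at 0.60 for *Plec* 1797219_1, where the others lay between -0.77 and -0.51. *Plec* 1797704_1 was highest in KO ras replicate 4, at 1.58, against -0.84 to -0.47 in the other 4 samples. In WT ras with Erlotinib, replicate 4 had the lowest value of *Bcam* 1769426_1 (-1.82, others -0.63 to -0.35). What set these samples apart was not tested.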

How the results depend on the processing

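Of 429 counts of member calls under other settings, 351 stayed within 1.5 times the reported count and 78 did not, and of 28 calls 9 were kept with run as a random block. The cause of each change was not tested. Counts are given with the reported count in parentheses.

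With run as a random block, calls were 0 (1) for ras in KO, 0 (2) for KO minus WT in ras cells, 0 (1) for Erlotinib in WT ras, 0 (1) for PD153035 in KO ras, 2 (4) for KO minus WT with AG1478, 0 (3), 0 (2) and 0 (1) for ras in WT with AG1478, Erlotinib and PD153035, and 0 (1) and 1 (6) for AG1478 minus Erlotinib and Erlotinib minus PD153035 in KO ras. As a fixed block it gave 2 (4) for KO minus WT with AG1478. The replicate block, whose numbers were not taken as pairs, gave 1 (2) for KO minus WT in ras cells, 2 (4) and 0 (1) for KO minus WT with AG1478 and PD153035, and 0 (1) for AG1478 minus PD153035 in KO ras.

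With only the groups compared in the fit, which leaves fewer samples for the spread, calls were 0 for ras in KO (1), KO minus WT in ras cells (2), Erlotinib in WT ras (1), KO minus WT with AG1478 (4) and Erlotinib (4), ras in WT with AG1478 (3), Erlotinib (2) and PD153035 (1), and AG1478 minus PD153035 in KO ras (1). Array weights gave more calls in 16 comparisons: 1 (0) for ras in WT, 4 (1) for ras in KO, 12 (0) for KO minus WT in mock cells, 2 (0) for the genotypes' ras effects, 4 (0), 8 (0) and 12 (1) for AG1478, Erlotinib and PD153035 in KO ras, 8 (4) and 4 (1) for KO minus WT with Erlotinib and PD153035, 1 (0), 6 (0) and 3 (0) for the inhibitors' effects in KO minus WT, 4 (0) for AG1478 minus PD153035 in WT ras, and 5 (1), 2 (1) and 13 (6) for AG1478 minus Erlotinib, AG1478 minus PD153035 and Erlotinib minus PD153035 in KO ras. They gave 0 (1) for Erlotinib in WT ras.

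Quantile normalization gave 0 (1) for ras in KO, 2 (0) for KO minus WT in mock cells, 1 (2) for KO minus WT in ras cells, 0 (1) for Erlotinib in WT ras, 4 (1) for PD153035 in KO ras, 0 (4) for KO minus WT with Erlotinib, 5 (3) and 5 (2) for ras in WT with AG1478 and Erlotinib, 1 (0) for AG1478 minus Erlotinib in WT ras, and 0 (1) and 2 (6) for AG1478 minus Erlotinib and Erlotinib minus PD153035 in KO ras. It moved the share of higher calls over all probes most for Erlotinib minus PD153035 in WT ras (57.6%, against 83.7%) and ras in WT with Erlotinib (55.3%, against 76.3%). Without the dye term, calls were 1 (2) for KO minus WT in ras cells, 2 (4) for it with Erlotinib, and 0 (1) for Erlotinib in WT ras and for AG1478 minus Erlotinib and AG1478 minus PD153035 in KO ras. Forward arrays alone gave 1 (2) for KO minus WT in ras cells, 1 (4) and 0 (1) for it with AG1478 and PD153035, 0 (1) for Erlotinib in WT ras, 3 (1) for PD153035 in KO ras and 0 (1) for ras in WT with PD153035. KO minus WT in mock cells gave 1 (0) with the repeat 1 arrays apart and 1 (0) with probes complete on every array.

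By the labelled dye order, calls were 0 (1) for ras in KO, 1 (2) for KO minus WT in ras cells, 0 (1) for Erlotinib in WT ras, 5 (0) for AG1478 in KO ras, 0 (4) for KO minus WT with Erlotinib, 1 (3), 0 (2) and 0 (1) for ras in WT with AG1478, Erlotinib and PD153035, and 9 (1), 0 (1) and 1 (6) for AG1478 minus Erlotinib, AG1478 minus PD153035 and Erlotinib minus PD153035 in KO ras. There *Itga6* 1780012_1 and 1790476_1 in KO minus WT with AG1478 turned to -0.26 and -0.092. Without the 2 arrays against their label, calls were 2 (4) for KO minus WT with AG1478 and 0 (1) for AG1478 minus Erlotinib in KO ras.

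Leaving out 1 sample at a time gave 0 to 3 calls for KO minus WT in ras cells, 0 to 3, 0 to 4 and 0 to 0 for it with AG1478, Erlotinib and PD153035, 0 to 1 in mock cells, 0 to 2 for ras in KO, 2 to 4, 1 to 2 and 0 to 1 for ras in WT with AG1478, Erlotinib and PD153035, 0 to 2 and 0 to 1 for Erlotinib and PD153035 in WT ras, 0 to 1 and 1 to 2 for Erlotinib and PD153035 in KO ras, 0 to 1 for AG1478 minus Erlotinib in WT ras, and 0 to 2, 0 to 1 and 4 to 5 for AG1478 minus Erlotinib, AG1478 minus PD153035 and Erlotinib minus PD153035 in KO ras. The other comparisons gave 0 each time.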
